A study of Mus musculus with 96 samples.

Results

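Most of the 31 genes described here encode the machinery by which a cell burns long-chain fatty acids in its mitochondria. The set also holds Ehhadh, a peroxisomal enzyme, and Acss1, an acetate enzyme. The rule lists the 31 genes by name and holds no measured value. The genes came from the 50868 present in all deposited tables, and all 31 were found. Total RNA depleted of ribosomal RNA was sequenced from cells of male C57Bl/6J mice whose left anterior descending coronary artery had been tied off for good, which causes a myocardial infarction (MI). Adult mice were unoperated (Day 0) or were examined 1, 3, 7, 14 or 28 days after ligation, and no group was given a sham operation. Digested hearts were separated into cardiomyocytes (CM, repeated centrifugation), hematopoietic cells (HC, beads against CD45), endothelial cells (EC, beads against CD144) and fibroblasts (FB, attachment to a dish). Each of the 24 groups of cell type and day held 4 libraries, 96 in all. Each library was a pool of RNA from several mice of 1 group. All mice were of this inbred strain, with no allele added or removed.

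Long-chain fatty acids enter the cell, are bound by a fatty acid binding protein and are activated to acyl-CoA. The carnitine shuttle carries the acyl group through the mitochondrial membranes. Inside, each turn of β-oxidation removes a 2-carbon unit by oxidation, hydration, a further oxidation and thiolysis, and the electrons pass to the respiratory chain through electron transfer flavoprotein. The adult heart draws most of its energy from this pathway, and the genes are known targets of the nuclear receptor PPARα and of estrogen-related receptors with their coactivator PGC-1α.

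Promoter sequence was available in the RefSeq table (GRCm38.p6) for 26 of the 31 genes. Most of the set fell in EC and HC, so this sequence is shown where it holds the core that nuclear receptors recognise. This was so for 4 genes, whose 250 bases before the start held AGGTCA on either strand. Days called lower in CM, EC, FB and HC, of the 5 against Day 0, were 0, 0, 1 and 0 for Cpt1a and 3, 2, 1 and 0 for Echs1. They were 0, 5, 0 and 5 for Acadm and 1, 1, 0 and 5 for Acadvl. The matching shares of all genes were not computed. The capitals mark the core, which reads TGACCT where it lies on the opposite strand of the gene.
Cpt1a, chr19:3323187-3323232, + strand: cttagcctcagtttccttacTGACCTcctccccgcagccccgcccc
Acadvl, chr11:70015490-70015535, − strand: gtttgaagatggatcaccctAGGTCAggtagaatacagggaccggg
Acadm, chr3:153944848-153944893, − strand: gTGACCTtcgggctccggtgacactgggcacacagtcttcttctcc
Echs1, chr7:140116479-140116524, − strand: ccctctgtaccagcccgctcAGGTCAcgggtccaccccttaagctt
The core was present in 15.4% of the 26 promoters, in 14% of all 32851 promoters and in 12.6% of the 20083 promoters of coding genes. The extended form AAGGTCA, which overlaps the core, was present only in Acadm, or 3.85% of the 26 against 4.08% of all promoters. A direct repeat of AGGNCA spaced by 1 base was found in none of the 26 and in 0.338% of all promoters. GGGCGG, the GC box, was present in 17 of 26 (65.4%), against 44.2% of coding promoters. Hadha and Hadhb, which encode the α and β subunits of the mitochondrial trifunctional protein, lie head to head, and the 85 bases between their outermost starts are shown because the pair shares them. Capitals mark the GC boxes.
Hadha and Hadhb, chr5:30155163-30155247, + strand: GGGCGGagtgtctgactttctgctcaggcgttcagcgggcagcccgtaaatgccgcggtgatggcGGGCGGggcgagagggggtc
These letter matches describe the sequence only, and binding was not measured.

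Libraries held 13503024 to 55758471 reads in CM, 12445124 to 33868990 in EC, 2664338 to 36545715 in FB and 16214419 to 40395291 in HC. Ribosomal RNA, with mitochondrial ribosomal RNA and similar loci counted in, took 53.4 to 68.2% of CM reads, against 2.83 to 35.6% in the other types. Levels are therefore given per 1000000 reads of nuclear protein-coding genes (coding CPM). The reads on the 31 genes numbered 42988 to 235964 per CM library and 1607 to 34310 per FB library. Log2 changes with their standard error (SE) come from edgeR's quasi-likelihood test, scaled by TMM (edgeR's trimmed mean factor), and a gene was called where the Benjamini-Hochberg adjusted p over all genes tested was under 0.05. All 31 genes passed the filter on low counts in every fit.

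The cell labels held for the dominant cell but not for purity. At Day 0 the CM libraries had a mean of 22360 coding CPM for the sum of 4 CM markers, while EC had 3194, HC 3216 and FB 37.9. In HC at Day 0 the 4 HC markers summed to 1491 and the 6 monocyte and macrophage markers to 10301. In EC the 4 EC markers summed to 6383. The lists hold different genes, so their sums do not give the share of each cell type. A list of 12 abundant CM transcripts (Myh6, Myl2, Ttn and others) took 120706 coding CPM in CM, against 28679 in HC, 23107 in EC and 859.8 in FB. FB Day 3 replicates 2 and 3 stood apart: they held 1282672 and 1719097 coding reads, and the 12 CM transcripts reached 3628 and 2691 there, against 857 and 956 in replicates 1 and 4. Also treated as apart were replicates 2 and 4 of HC Day 28, replicate 4 of FB Day 28, replicate 3 of EC Day 28 and replicates 1 and 2 of EC Day 0. By mean correlation with their group, EC Day 0 replicates 1 and 2 (0.95 and 0.952) were like 3 and 4 (0.951 and 0.951). They held the higher sums of the 31 genes (3976 and 4610 against 3321 and 3497), so leaving them out is not a removal of outliers. HC Day 3 replicate 4 (0.935) was not treated as apart. Counts that the 8 apart libraries move are given with and without them. In such bulk samples, fewer cells of a type and less RNA per cell cannot be told apart.

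At Day 0, 30 of the 31 genes were higher in CM than in the mean of the other 3 cell types and 1, Cpt1a, was lower. The background was 32% of all genes higher and 44.5% lower. The median log2 difference was 3.71 for the members and −0.46 for all genes tested, which leaves 4.17 relative to that shift. Scaled to coding reads instead of TMM, these medians were 2.95 and −1.21. By limma on TPM as deposited, where the share of short and ribosomal RNA enters, 18 members were higher and 5 lower. The member median there was 0.41, against −0.91 for all genes. Summed over the 31 genes, CM had 22474 coding CPM ± 532 (SD, n = 4), EC 3851 ± 577, HC 4383 ± 627 and FB 1161 ± 60.7. Libraries were prepared by cell type, so cell type and preparation cannot be told apart in this comparison. By the study's methods the pools of a day came from matched animals, so libraries of different cell types were not independent, although this fit and the interaction fit treated them so.

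Per length (TPM rescaled to nuclear coding genes, coding TPM), Fabp3, the fatty acid binding protein of heart and muscle, was the most abundant member in CM at 12357 ± 1885 (SD, n = 4). Next came Ech1 (3051 ± 591), an isomerase for unsaturated chains, and Acot13 (1909 ± 297), a thioesterase. The thiolase Acaa2 had 1833 ± 202, the electron carrier subunits Etfb and Etfa 1590 ± 517 and 1325 ± 281, and the trifunctional protein genes Hadha and Hadhb 1357 ± 109 and 1332 ± 93.6. Hadha and Hadhb, whose products assemble in equal numbers, differed by less than their SD, as did Acot13 and Acaa2.

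Acyl-CoA dehydrogenases, which catalyse the first oxidation, were ordered in CM by coding TPM as Acadm (medium chain, 842 ± 232), Acadl (long chain, 799 ± 109), Acadvl (very long chain, 452 ± 177) and Acads (short chain, 50.5 ± 32.8). Acadm and Acadl overlapped, as did Acadl and Acadvl, whose highest library reached 699, while every Acads library was far below. The isomerase Eci1 had 832 ± 191 coding TPM, the hydroxyacyl-CoA dehydrogenase Hadh 624 ± 65.4 and the short-chain hydratase Echs1 403 ± 49.9. Hsd17b10, a short-chain hydroxyacyl-CoA dehydrogenase, had 367 ± 38.3, and Etfdh, which hands electrons to ubiquinone, 359 ± 39.1. Acat1, the acetoacetyl-CoA thiolase, had 236 ± 36.9, the isomerase Eci2 205 ± 15.5 and the dienoyl-CoA reductase Decr1 173 ± 19.4.

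Among the genes for activation and transport in CM, Cpt2, the inner carnitine palmitoyltransferase, had 409 ± 97.9 coding TPM and Acsl1, an acyl-CoA synthetase, 234 ± 23.1. Cpt1b, the muscle form of the rate-limiting outer transferase, had 174 ± 81.2, and Slc25a20, the carnitine-acylcarnitine translocase, 126 ± 20.3. The lowest levels were those of Acss1 (mitochondrial acetyl-CoA synthetase, 80.8 ± 9.84), Mlycd (malonyl-CoA decarboxylase, 73.3 ± 17.5), Acot2 (61.1 ± 2.89), the fatty acid transport protein gene Slc27a1 (27.8 ± 8.54) and Acot1 (22.9 ± 6.65). Cpt1a (8.47 ± 0.783) and Ehhadh (4.77 ± 0.752), the peroxisomal bifunctional enzyme, were last. Acot1 and Acot2 are nearly identical paralogs, so their split is uncertain.

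The 4 largest log2 differences between CM and the mean of the other types were in Fabp3 (6.08, SE 0.14, edgeR adjusted p = 1.4e-16), Cpt1b (4.99, SE 0.20), Acot13 (4.87, SE 0.13) and Acss1 (4.26, SE 0.10). Fabp3 had 3650, 4635, 3485 and 3861 coding CPM in the 4 CM libraries and 5.52, 6.75, 5.46 and 5.52 in FB. It had 383, 473, 331 and 319.8 in EC and 337, 521, 477 and 353 in HC. CM stood above all other libraries, FB below them, and EC and HC overlapped. Zcchc17 and Gm10570 overlap Fabp3 on the opposite strand, and the counting strand is not given, so its reads may not all be its own. The 4 smallest differences were in Cpt1a (−1.29, SE 0.12, edgeR adjusted p = 2.6e-08), Slc27a1 (2.08, SE 0.22), Echs1 (2.36, SE 0.087) and Ehhadh (2.42, SE 0.16). Per length, however, Slc27a1 had 27.8 ± 8.54 coding TPM in CM, 30.8 ± 4.63 in HC, 24.8 ± 8.65 in EC and 10.9 ± 1.41 in FB (SD, n = 4). In that unit CM did not stand above HC and EC.

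Cpt1a and Cpt1b, isoforms for the same step, differed in their order across cell types: CM had the lowest Cpt1a and the highest Cpt1b. Cpt1a had 346, 217, 268 and 277 coding CPM in HC, 129, 126, 115 and 118 in FB, 75.6, 64.8, 83.9 and 97 in EC, and 37.6, 33.4, 30.9 and 34 in CM. These 4 ranges did not overlap in coding CPM, but CM overlapped another type when scaled by TMM. For Cpt1b the CM libraries had 326, 609, 248 and 439, the HC libraries 76.9, 100.4, 79.3 and 62.5, the EC libraries 36.1, 57.8, 42.6 and 63.1, and the FB libraries 1.86, 2.38, 3.43 and 2.44. EC and HC overlapped at their edge, and the other neighbours were separate. In EC replicates 1 and 2, 269 and 238 reads were assigned to Gm44502, a gene that overlaps Cpt1b on the same strand, and with them these libraries had 58.1 and 74.6. In the marker check, EC and HC at Day 0 held 19.1% and 23.8% of the CM level of the 12 CM transcripts, and 17.1% and 19.5% of the CM level of the 31 genes. FB held 0.712% and 5.17%. The part of CM RNA in the EC and HC values was not tested.

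**Figure D1:**
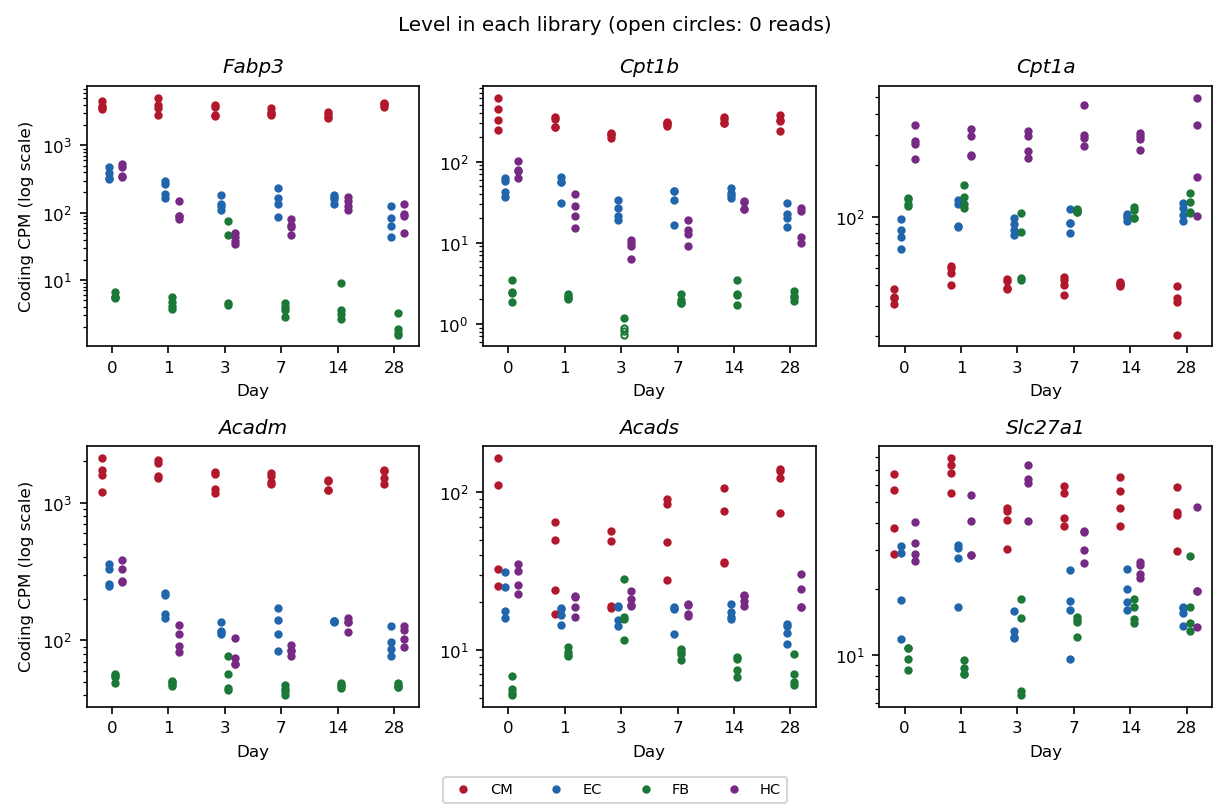
Coding CPM (log scale) of 6 member genes in each of the 96 libraries, by day after MI and cell type (CM red, EC blue, FB green, HC purple). Each point is 1 library, and the 3 open circles for Cpt1b in FB at Day 3 are libraries at 0, drawn low on the axis. Fabp3 in HC fell from a mean of 422 at Day 0 to 41.1 at Day 3, while Cpt1a in HC stayed near 277 and 269.

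In CM, the genes were little changed at Day 1, lower from Day 3 to Day 14 and back near the Day 0 level at Day 28. At Day 3, 14 of 31 were lower and 0 higher (background 14.6% lower and 16% higher), at Day 7 10 were lower (background 4.35% lower and 8.93% higher), and at Day 14 17 (background 5.71% and 8.05%). The member medians were −0.39, −0.44 and −0.52, against −0.063, −0.03 and −0.0033 over all genes tested. At Day 28 no member was called (background 1.09% lower and 2.48% higher), while 5 had an unadjusted p under 0.05 and DESeq2 called 2 lower. From Day 3 to Day 28, 8 members rose and none fell (background 4.62% higher and 9.89% lower). Scaling to coding reads instead of TMM left 3 lower genes at Day 7, 9 at Day 14 and 2 higher from Day 3 to Day 28. By limma on TPM as deposited, where the share of short and ribosomal RNA enters, 0 were lower and 2 higher at Day 3 and none was called at Day 7 or 14, and limma on TPM scaled by TMM left 9 lower at Day 3, 0 at Day 7 and 1 at Day 14 (medians −0.33, −0.33 and −0.41).

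The 31 genes together took 22286, 23257, 22067 and 22286 coding CPM in CM at Day 0 and 18934, 15877, 20098 and 16494 at Day 3. The Day 3 mean was 79.4% of that at Day 0, with no overlap between the groups, and the Day 28 mean was 20885 ± 1157 (SD, n = 4). Over the same interval the 12 abundant CM transcripts went from 120706 ± 12777 to 83724 ± 5741, with 4 of 12 called lower, while the 4 CM markers had 22360 and 20337. Monocyte and macrophage markers rose from 8.41 to 14.2 coding CPM per library at Day 0 to 255 to 426 at Day 3, with 6 of 6 called, and 3 of 4 FB markers and 2 of 4 HC markers rose too. Itgax and Itgal, the remaining HC markers, did not pass the filter. The part of these cells in the CM change was not tested.

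Among the genes of the shuttle and of activation in CM, Cpt1b, the muscle outer transferase, went from 326, 609, 248 and 439 coding CPM to 195, 219, 212 and 222, with a log2 change of −1.07 (SE 0.19, edgeR adjusted p = 1.7e-04). Every Day 3 library was below every Day 0 library. Cpt2, the inner transferase, went from 241, 272, 208 and 215 to 152, 119.9, 175 and 133 (−0.81, SE 0.14, edgeR adjusted p = 8.8e-05). It stayed lower at Day 7 (−0.68, SE 0.14) and Day 14 (−0.76, SE 0.14), at means of 163 and 153. Acsl1, which activates the fatty acid, went from 1050, 915, 1022 and 1027 to 701, 634, 695 and 585 (−0.73, SE 0.12, edgeR adjusted p = 8.1e-05). Slc25a20, the translocase between the transferases, had −0.39 at Day 3 (SE 0.15, edgeR adjusted p = 0.056) and was called at Day 7 (−0.54) and Day 14 (−0.60).

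In the oxidation spiral, Hadhb went from 2886, 2453, 2825 and 2535 coding CPM to 2024, 1601, 1849 and 1469 at Day 3 (−0.74, SE 0.13, edgeR adjusted p = 1.0e-04), and Hadha had −0.44 (SE 0.13). The groups did not overlap for either subunit. Of the 7 genes for hydration, further oxidation and thiolysis, 6 fell at Day 3. Of the 4 acyl-CoA dehydrogenases only Acadvl (−0.54) was called, and Acadm and Acadl had −0.33 and −0.29 (adjusted p = 0.096 and 0.072 in edgeR). Ehhadh had −0.85 (SE 0.25, edgeR adjusted p = 0.012), at means of 15.8 and 9.57, and lost its call without CM Day 0 replicate 2 (−0.69, adjusted p = 0.053). Etfdh, the exit of electrons to ubiquinone, had −0.64 (SE 0.11). At Day 7 the thiolase Acaa2 led, with 799.9, 1053, 777 and 848 at Day 0 and 533, 541, 707 and 597 at Day 7 (−0.71, SE 0.17, edgeR adjusted p = 0.0058).

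Cpt2, Hadhb, Hadh, Echs1, Acaa2, Etfdh and Decr1 were lower at all of Days 3, 7 and 14. These comparisons share the CM Day 0 libraries, and the share of all genes lower on all of these days was not computed. Acot1 had 11.8, 9, 9.2 and 14.7 coding CPM at Day 14 against 20.8, 24.1, 17.4 and 21.7 at Day 0 (−1.06, SE 0.30, edgeR adjusted p = 0.022). That call was lost without CM Day 0 replicate 2, Day 14 replicate 2 or Day 14 replicate 3, with adjusted p between 0.067 and 0.087. The Day 7 count went to 5 without CM Day 7 replicate 2 or 4, and the Day 14 count to 8 and 11 without CM Day 14 replicates 2 and 3. Fabp3 itself went from 3908 ± 509 coding CPM (SD, n = 4) to 2817 ± 279 at Day 14 (−0.62, edgeR adjusted p = 0.022) and was 4061 ± 226 at Day 28.

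At CM Day 1, 3 genes rose and none fell (background 6.81% higher and 4.58% lower). Cpt1a had 51.4, 40.0, 46.7 and 49.7 coding CPM against 37.6, 33.4, 30.9 and 34 (0.43, SE 0.11, edgeR adjusted p = 0.015). Without CM Day 1 replicate 1 its adjusted p was 0.052. The thioesterases Acot1 (1.09) and Acot2 (0.61) were called too, although their Day 1 and Day 0 libraries overlapped. Acot1 reached 88.1 in replicate 3 and 23.6 in replicate 2. The read ratio of Cpt1b to Cpt1a, which is not per length, went from a median of 10.6 at Day 0 to 6.16 at Day 1 and 5.13 at Day 3, and was 9.88 at Day 28. The Day 3 libraries (4.91 to 5.93) were all below the Day 0 libraries (8.02 to 18.2).

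From Day 3 to Day 28 in CM, Cpt1b rose by 0.70 (SE 0.19, edgeR adjusted p = 0.014), a call lost without CM Day 28 replicate 2 (0.62, adjusted p = 0.055). Etfb rose by 1.09 (SE 0.36, edgeR adjusted p = 0.048), with 317, 554, 435 and 815 coding CPM at Day 3 and 859, 967, 1250 and 972 at Day 28. It lost the call in 6 of 8 fits that left out 1 library (adjusted p up to 0.15). The count of 8 rising genes went to 4 and 2 without CM Day 3 replicates 1 and 2, and to 2 and 5 without CM Day 28 replicates 2 and 4. Acads, the short-chain dehydrogenase, had 32.4, 164, 25.6 and 110.2 at Day 0 and 19, 48.9, 18.5 and 56.7 at Day 3. In both groups replicates 2 and 4 were high and 1 and 3 low, and the change of −1.36 (SE 0.62) was not called (edgeR adjusted p = 0.1).

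**Figure D2:**
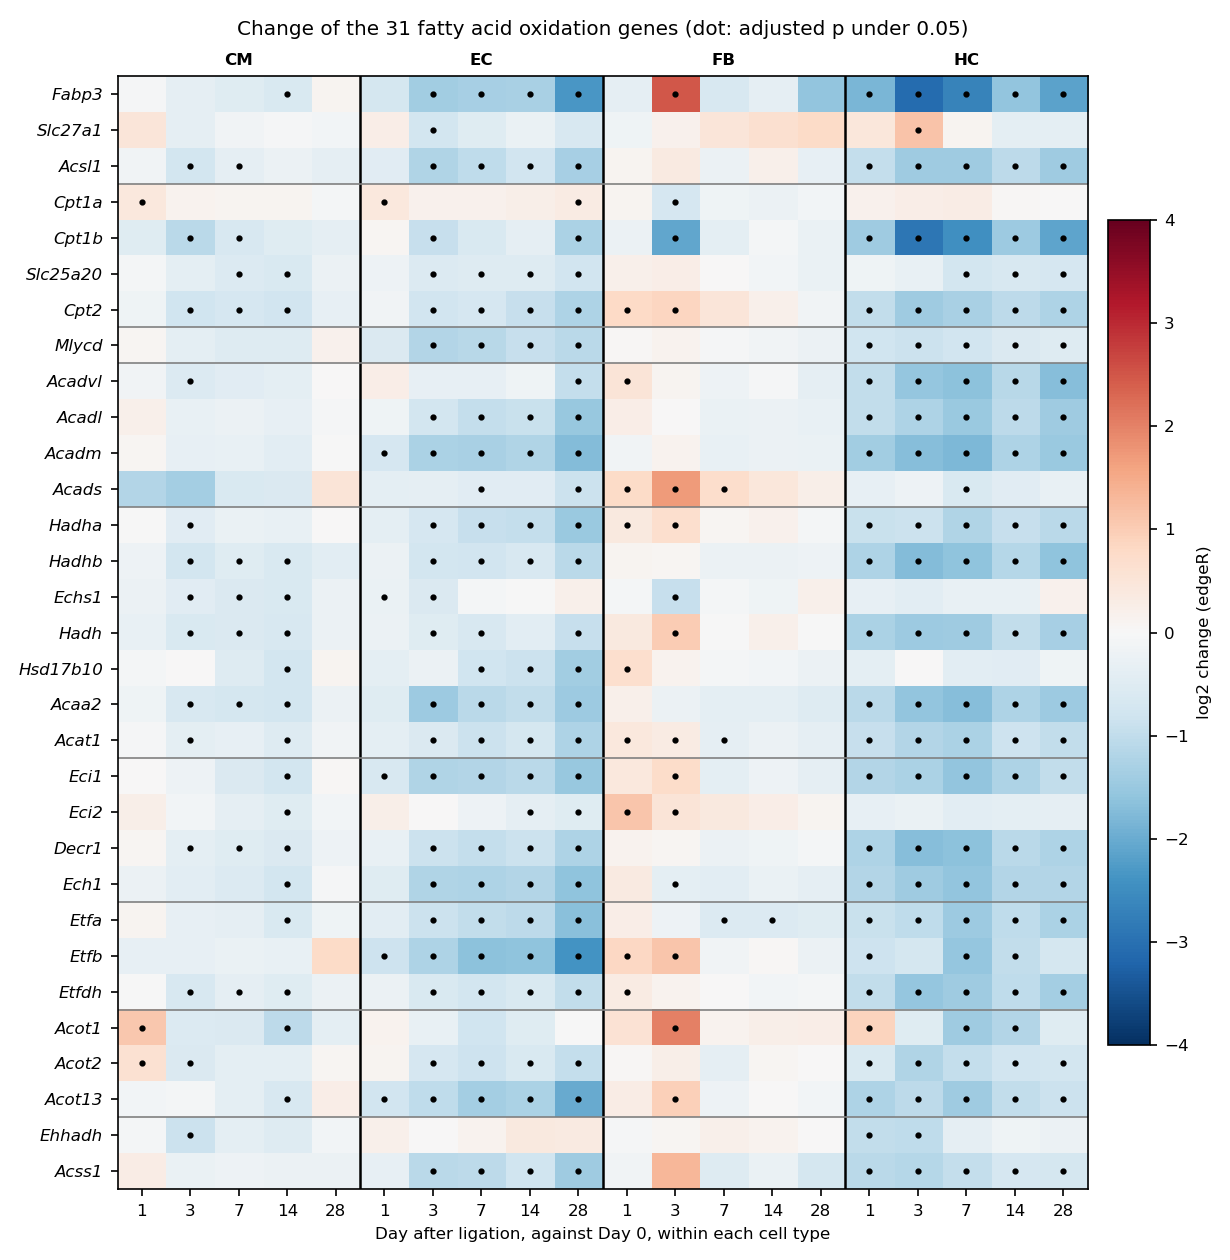
Log2 change of each of the 31 genes against Day 0, by cell type and day, from edgeR, with genes ordered by role. Blue is lower and red higher than at Day 0, and dots mark changes called at an adjusted p under 0.05. Blue fills most of the EC and HC columns at Days 3 to 28, CM is paler, and FB holds both colours.

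In EC the genes fell from Day 3 and stayed low to Day 28. At Day 3, 24 of 31 were lower and none higher (background 22.3% lower and 23.2% higher), with a median of −0.73 against −0.027 over all genes. There were 23 lower at Day 7 (background 19.6% lower and 18% higher), 22 at Day 14 (background 14.3% and 12.8%) and 26 lower with 1 higher at Day 28 (background 17.4% lower and 16.3% higher). The Day 28 median was −1.24. From Day 3 to Day 28, 14 fell and 1 rose (background 25.1% lower and 22.5% higher). Without the apart libraries 22, 20, 17 and 22 were lower at Days 3, 7, 14 and 28, and 10 fell from Day 3 to Day 28. By limma on TPM as deposited the direction turned at Day 7 (2 lower, 4 higher), Day 14 (1 lower, 8 higher) and from Day 3 to Day 28 (0 lower, 13 higher), where the median of all genes stood at 0.39, 0.42 and 0.38; relative to it the members were at −0.37, −0.20 and 0.02.

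The summed level in EC was 3976, 4610, 3321 and 3497 coding CPM at Day 0. It was 2376, 1990, 1961 and 1960 at Day 3, then 1651, 2114, 1505 and 1861 at Day 28. Every Day 3 and Day 28 library was under the Day 0 range. The 12 abundant CM transcripts in these EC libraries had 17611 to 27943 at Day 0, 9650 to 12364 at Day 3 and 4917 to 10157 at Day 28. Of these, 11 of 12 were lower at Day 3 and 12 of 12 at Day 28. Mural markers (pericyte and smooth muscle) had 5 of 6 lower at Day 3 and a sum of 4768 to 5666, then 1775 to 2227. The EC markers had 2 of 4 lower and 2 higher and summed to 6383 and 5283. Of 5 adipocyte markers, Lep was at 0 in every EC library of Days 0, 3 and 28, and none of the other 4 was called at Day 3. The 4 FB markers in EC summed to 122 to 161 coding CPM at Day 0, 189.8 to 268 at Day 3 and 255 to 437 at Day 28, with 1 of 4 higher at Day 3 and 4 of 4 at Day 28. The part of CM, mural and FB RNA in the EC decrease was not tested.

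**Figure D3:**
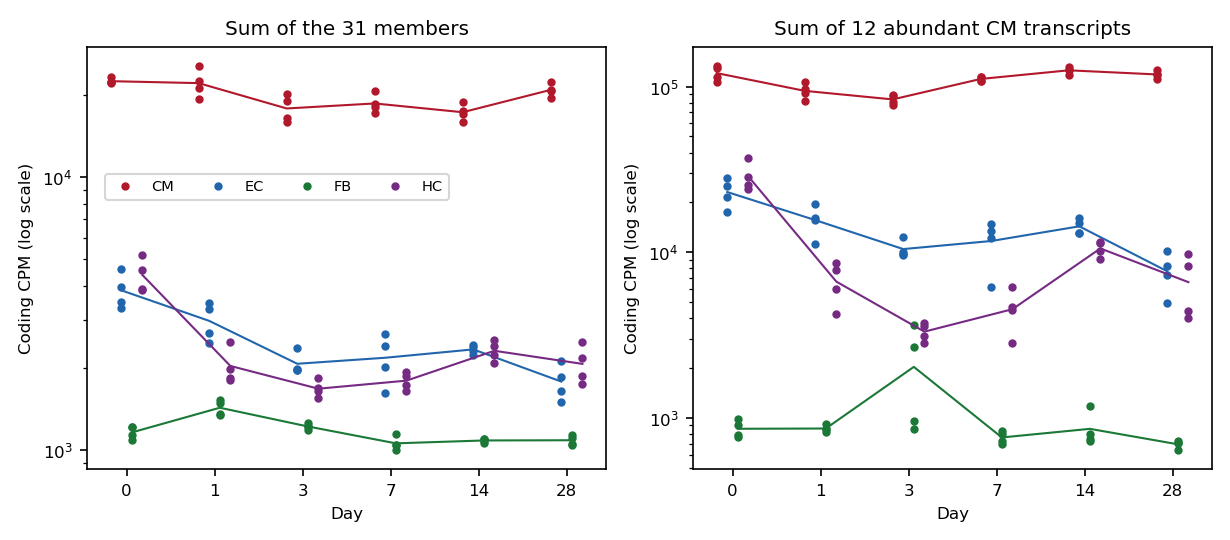
Summed coding CPM (log scale) of the 31 genes (left) and of 12 abundant CM transcripts (right) by day after MI. Points are libraries (n = 4 per group) and lines join the group means. In HC both sums fell from Day 0 to Day 3, from 4383 to 1679 and from 28679 to 3317.

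Among the genes of uptake and activation in EC, Fabp3 went from 383, 473, 331 and 319.8 coding CPM at Day 0 to 185, 134, 111 and 125 at Day 3 (−1.39, SE 0.30, edgeR adjusted p = 7.7e-04). It was 62.9, 127, 44 and 82.6 at Day 28 (−2.34, SE 0.31, edgeR adjusted p = 1.1e-05) and had −1.29 at Day 14 (SE 0.29). Acsl1 had −1.19 at Day 3 (SE 0.19, edgeR adjusted p = 2.8e-05). In the shuttle, Cpt2 (−0.77), Slc25a20 (−0.54) and Cpt1b (−0.93) were lower at Day 3, the last with the read split in 2 Day 0 libraries given above. Cpt1a was not called, at 80.3 ± 13.6 coding CPM (SD, n = 4) and 87.2 ± 8.79, so the shuttle genes did not move as one.

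Acaa2, which cleaves off acetyl-CoA, had the largest EC decrease at Day 3: it went from 184, 213, 133 and 144 coding CPM to 70.8, 53.5, 57.3 and 53.6 (−1.46, SE 0.19, edgeR adjusted p = 3.3e-06). Acadm went from 331, 359, 249 and 258 to 137, 117, 111 and 114 (−1.26, SE 0.19, edgeR adjusted p = 1.8e-05). Ech1 went from 239, 281, 171 and 154 to 97.7, 82.3, 87.9 and 84.3 (−1.21, SE 0.20, edgeR adjusted p = 4.5e-05). In all 3 genes the groups were clearly apart. Acadl (−0.73), Hadha (−0.66) and Etfdh (−0.62) were called as well, whereas Acadvl (−0.34), Acads (−0.37), Hsd17b10 (−0.25) and Eci2 (0.023) were not.

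Etfb, the β subunit of electron transfer flavoprotein, was lower in EC on every day. It had 175, 201, 121 and 94.1 coding CPM at Day 0. This went to 61.8, 77.9, 48.4 and 54.4 at Day 3, then to 25.2, 34.3, 25.3 and 35 at Day 28. The log2 changes were −1.23 at Day 3 (SE 0.22), −1.64 at Day 7 (SE 0.22), −1.62 at Day 14 (SE 0.22) and −2.39 at Day 28 (SE 0.23, edgeR adjusted p = 6.6e-07). Day 28 was lower than Day 3 by a log2 difference of −1.17 (SE 0.23, edgeR adjusted p = 2.6e-04). Another coding gene on the same strand, Gm45233, overlaps Etfb, so its reads could be split. Acot13 was at −1.37 at Day 7 (SE 0.21), with 23.4, 12.7, 19.5 and 27.1 against 58.8, 64.9, 42.6 and 41.4.

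Hsd17b10 and Echs1 moved in opposite directions from Day 3 to Day 28 in EC. Hsd17b10 had 25.1, 33.7, 23.7 and 24.3 coding CPM at Day 3 and 12.9, 12.7, 11.7 and 16.5 at Day 28 (−1.14, SE 0.17, edgeR adjusted p = 1.2e-05). Echs1 had 121, 118, 132 and 133 at Day 3 and 236, 252, 277 and 206 at Day 28 (0.80, SE 0.092, edgeR adjusted p = 6.8e-07), which put it back in the Day 0 range of 159 to 226 or above. Echs1 overlaps Paox on the opposite strand. The only gene called higher at Day 28 against Day 0 was Cpt1a (0.33, SE 0.13, edgeR adjusted p rounding to 0.05), and its libraries overlapped Day 0. Acadm, Eci1, Etfb and Acot13 were lower on all 5 days, and 16 more genes on 4 days. The comparisons share the EC Day 0 libraries, and the matching shares of all genes were not computed.

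At EC Day 1, 5 genes were lower and 1 higher (background 9.12% lower and 9.85% higher). Acot13 had −0.78 (SE 0.21, edgeR adjusted p = 0.012) and Acadm −0.68 (SE 0.19, edgeR adjusted p = 0.016). Acadm went from 331, 359, 249 and 258 to 145, 214, 220.2 and 156. These calls rested on single libraries: Acot13 lost its call without EC Day 0 replicate 2 or Day 1 replicate 4, and Acadm without EC Day 0 replicate 1 or 2 or Day 1 replicate 1 or 4 (adjusted p 0.051 to 0.065). The total of 6 calls went to 2, 1, 12 and 0 without EC Day 0 replicate 1, 2 or 4 or Day 1 replicate 4. Without the apart libraries, 0 were lower and 1, Eci2, higher.

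FB expressed the genes least, and there the direction was mixed. At Day 1, 9 of 31 were higher and none lower (background 11.6% higher and 6.36% lower), and at Day 3, 11 were higher and 4 lower (background 25.8% and 23.3%). At Day 7 there were 2 lower and 1 higher (background 4.53% and 9.84%) and at Day 14 1 lower (background 2.62% lower and 8.25% higher). No member was called at Day 28 (background 0.606% lower and 2.88% higher), where 11 had an unadjusted p under 0.05 and DESeq2 called 5 lower and 1 higher. From Day 3 to Day 28, 18 fell and 3 rose (background 24.8% and 26%), or 16 and 3 without the apart libraries. By limma on TPM as deposited 26 were lower and none higher at Day 3, with the median of all genes at −0.70, and from Day 3 to Day 28 1 fell and 6 rose. The summed level was 1211, 1211, 1087 and 1135 coding CPM at Day 0. It was 1489, 1359, 1532 and 1341 at Day 1, then 1217, 1253, 1189 and 1223 at Day 3. Day 1 lay above Day 0 in every library.

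At FB Day 1, Eci2, an isomerase for unsaturated chains, went from 76.9, 71.8, 63.8 and 66.1 coding CPM to 151, 143, 161 and 139 (1.11, SE 0.17, edgeR adjusted p = 8.7e-05). All 4 libraries lay far above Day 0. An antisense gene, Gm16984, overlaps it. Etfb went from 26.5, 28.3, 23.6 and 27.4 to 52, 39.5, 48.2 and 47 (0.84, SE 0.23, edgeR adjusted p = 0.013). Cpt2 rose as well, from 11.7, 9.83, 8.59 and 8.23 to 18.1, 18.2, 15.8 and 13.9 (0.80, edgeR adjusted p = 0.0017). The abundant CM transcripts in FB summed to 859.8 at Day 0 and 863 at Day 1. Leaving out the apart libraries, all of other days, raised the Day 1 count to 15 higher.

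At FB Day 3, some calls rested on all 4 libraries and others on the pair that stood apart. Acads went from 5.2, 6.86, 5.34 and 5.69 coding CPM to 11.6, 28.1, 15.7 and 16.2 (1.70, SE 0.21, edgeR adjusted p = 1.2e-06), and all 4 Day 3 libraries were higher. Etfb (1.10, SE 0.24, edgeR adjusted p = 7.0e-04) and Hadh (1.02, SE 0.18, edgeR adjusted p = 1.1e-04) rose too, Hadh to 38.4, 80.9, 86.1 and 52.6 from 35.6, 37.6, 30.2 and 33.6. A reduced fit left out replicates 2 and 3 and also FB Day 28 replicate 4. There Acads had 1.40 (adjusted p = 7.2e-07), Etfb 1.01 and Hadh 0.55 in edgeR, all still called, and the counts were 8 higher and 3 lower. Fabp3 was called (2.49, SE 0.65) although only replicates 2 and 3 were high, at 75.1 and 46.5 against 4.28 and 4.61. In the reduced fit Fabp3 had −0.25 (edgeR adjusted p = 0.56). Acot1 was alike, at 5.83, 40.2, 35.4 and 7.7, and had 0.46 (edgeR adjusted p = 0.12) in the reduced fit. With all 4 FB Day 3 libraries, 10 of 12 CM transcripts and 4 of 4 CM markers were higher and 4 of 4 FB markers lower. Their part in these values was not tested.

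Echs1 (−0.91, SE 0.29, edgeR adjusted p = 0.014), Cpt1a (−0.66, SE 0.19, edgeR adjusted p = 0.0058) and Ech1 (−0.40, SE 0.15, edgeR adjusted p = 0.035) were lower at FB Day 3. Echs1 had 71, 18.2, 11.2 and 62.2 coding CPM against 91.2, 82.9, 90.9 and 98.9, and Cpt1a 105, 43.7, 42.5 and 81.3 against 129, 126, 115 and 118. In both genes replicates 2 and 3 were the lowest. In the fit without the apart FB libraries Echs1 had −0.31 and was still called, and Cpt1a had −0.25 and was not (edgeR adjusted p = 0.099). Leaving out replicate 2 alone ended the Echs1 call (−0.65, edgeR adjusted p = 0.062). Ech1 lost its call without FB Day 0 replicate 1 or 2 or without Day 3 replicate 2, 3 or 4 (adjusted p 0.069 to 0.14).

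Cpt1b had 1.19, 0, 0 and 0 coding CPM at FB Day 3 against 1.86, 2.38, 3.43 and 2.44 at Day 0 (−2.09, SE 0.53, edgeR adjusted p = 0.0027). The gene Gm44502, on the same strand and overlapping Cpt1b, held 0, 16.7, 16.2 and 12.5 estimated reads in these Day 3 libraries and 4.4, 0, 0 and 0 at Day 0. Cpt1b and Gm44502 together had 1.19, 13, 9.41 and 0.976 at Day 3 and 2.06, 2.38, 3.43 and 2.44 at Day 0, with no single direction. The zeros therefore coincide with reads assigned to the neighbour, and no change of Cpt1b in FB can be read from them. The fitted change moved between −8.69 and −1.49 when single libraries were left out. Cpt1b was also called from Day 3 to Day 28 (1.82, SE 0.53), with the same limit.

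At FB Day 7, Acads was still higher (0.70, SE 0.19, edgeR adjusted p = 0.015), at 9.7, 9.4, 10.2 and 8.66 coding CPM. This call was lost without FB Day 0 replicate 1 (adjusted p = 0.054). Etfa was lower at Day 7 and Day 14, at 51, 55.6, 65 and 51.5 and then 56.8, 63.2, 49.6 and 52.8 against 78, 83.1, 79 and 85.3 (−0.56 and −0.56, SE 0.16, edgeR adjusted p = 0.023 and 0.027). No library overlapped Day 0, yet the Etfa call was lost in 6 of 8 fits at Day 7 and 7 of 8 at Day 14 that left out 1 library. The Day 7 total went to 1 without FB Day 0 replicate 2 or Day 7 replicate 2 or 4. From Day 3 to Day 28, Fabp3 fell by 4.05 (SE 0.69), Acads by 1.45 (SE 0.20), and Echs1 rose by 1.10 (SE 0.29, edgeR adjusted p = 0.004). These comparisons share the Day 3 libraries above.

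In HC most of the genes were lower from Day 1 on. At Day 1, 23 of 31 were lower and 1 higher (background 23.9% lower and 18% higher), with a median of −0.97 against −0.11 over all genes. At Day 3, 22 were lower and 1 higher (background 23.2% and 23.3%), and at Day 7 25 were lower (background 14% lower and 14.1% higher) with a median of −1.42. Day 14 had 24 lower (background 6.81% and 6.1%) and Day 28 22 (background 10.4% and 11.4%), or 25 without the apart libraries. By limma on TPM as deposited 11 were lower at Day 7, 0 at Day 14 and 6 at Day 28. From Day 3 to Day 28, 6 rose and 1 fell (background 23.4% and 18.5%). Scaling to coding reads raised that last count to 13, and leaving out the apart libraries lowered it to 2. A set of 21 genes was lower on all 5 days, among them Cpt2, Acadvl, Acadl, Acadm, Hadha, Hadhb, Etfa, Etfdh and Decr1. The 5 comparisons share the HC Day 0 libraries, and the share of all genes lower on all 5 days was not computed.

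The summed level in HC was 3906, 5190, 4567 and 3868 coding CPM at Day 0. It was 1811, 1989, 2495 and 1840 at Day 1, then 1683, 1551, 1649 and 1833 at Day 3. It was 2085, 2400, 2525 and 2240 at Day 14, still wholly under Day 0. The 12 CM transcripts fell over the same days from 24008 to 36865 per library to 4243 to 8565 at Day 1 and 2830 to 3716 at Day 3, with 12 of 12 called lower. They came back to 9052 to 11576 at Day 14. At Day 3 mural (6 of 6), EC (4 of 4) and FB (4 of 4) markers were lower too, HC markers had 3 of 4 higher, and neutrophil markers 5 of 5 higher. The neutrophil sum was 225 to 414 at Day 0, 2463 to 4225 at Day 1 and 620.0 to 1091 at Day 3. The monocyte and macrophage sum was 10301 at Day 0 and 11533 at Day 3. The part of these changes in cell make-up in the HC decrease was not tested.

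Fabp3 in HC went from 337, 521, 477 and 353 coding CPM at Day 0 to 88.9, 90.5, 152 and 81.8 at Day 1 and 43.3, 33.9, 38 and 49.3 at Day 3. The log2 changes were −1.83 at Day 1 (SE 0.26), −3.07 at Day 3 (SE 0.27, edgeR adjusted p = 8.5e-09), −2.66 at Day 7 (SE 0.27), −1.59 at Day 14 (SE 0.26) and −2.15 at Day 28 (SE 0.26). Cpt1b followed, from 76.9, 100.4, 79.3 and 62.5 to between 6.28 and 10.7 in the 4 libraries at Day 3 (−2.89, SE 0.29, edgeR adjusted p = 3.5e-08). Cpt1b was also lower at Day 1 (−1.42), Day 7 (−2.44), Day 14 (−1.46) and Day 28 (−2.12). Both genes were lowest at Day 3 and partly returned by Day 14, as did the CM transcripts. Cpt1a, the form that HC express most, had 277 ± 53.1 at Day 0 and 269 ± 45.8 at Day 3 (SD, n = 4), and was called on none of the 5 days.

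Inside the mitochondrion, Hadhb in HC went from 356, 520.3, 434 and 358 coding CPM to 118, 113, 103 and 85.7 at Day 3 (−1.73, SE 0.17, edgeR adjusted p = 3.1e-08). Acadm went from 267, 381, 331 and 269.6 to 74.5, 66.9, 67.8 and 104 (−1.69, SE 0.18, edgeR adjusted p = 9.2e-08). Decr1, the reductase for polyunsaturated chains, went from 75.2, 108, 90.1 and 75.9 to 23.8, 20.5, 21.8 and 23.3 (−1.69, SE 0.17, edgeR adjusted p = 5.4e-08). Each gene had all Day 3 libraries far below Day 0. Cpt2 (−1.42), Acsl1 (−1.41), Acadl (−1.23), Etfdh (−1.55) and Hadha (−0.85) were also lower, while Slc25a20 had −0.31 (SE 0.16, edgeR adjusted p = 0.12).

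Slc27a1, a fatty acid transport protein, went the other way in HC at Day 3. It had 73.5, 61.2, 64 and 41.1 coding CPM against 32.5, 40.3, 28.8 and 26.9 at Day 0 (1.15, SE 0.25, edgeR adjusted p = 6.1e-04), with no overlap. By Day 28 it was at 19.5, 47.2, 19.5 and 13.4 (−1.54 against Day 3, SE 0.25, edgeR adjusted p = 5.5e-05). Ehhadh, the peroxisomal enzyme, started from 7.81, 7.13, 7.45 and 6.34 at Day 0. It had 3.63, 3.82, 3.32 and 1.34 at Day 3, and reached 6.72, 8.38, 5.33 and 4.08 by Day 28 (0.79 against Day 3, SE 0.22, edgeR adjusted p = 0.0067). Acot1 was the 1 gene higher at HC Day 1 (0.88, SE 0.34, edgeR adjusted p = 0.041), with 6.52, 5.06, 11.1 and 5.02 against 4.88, 4.96, 3.98 and 3.51. Its call was lost without HC Day 0 replicate 1, 3 or 4 or Day 1 replicate 1 or 3 (adjusted p 0.06 to 0.18).

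**Figure D4:**
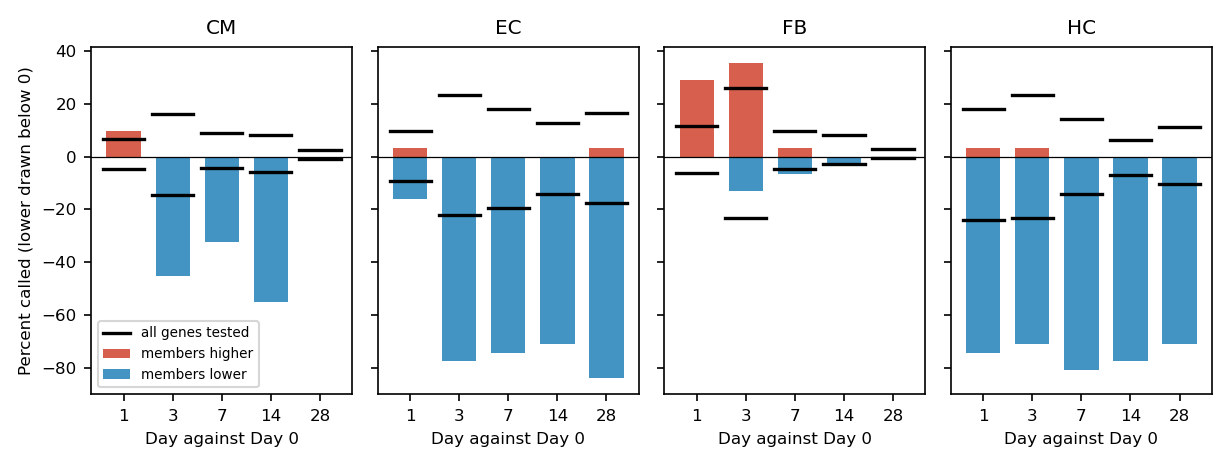
Percent of the 31 genes called higher (above 0) and lower (drawn below 0) at each day against Day 0, by cell type, with black lines for the percent of all genes tested. In HC 25 of 31 genes were lower at Day 7 against a background of 14%, and in FB 9 of 31 were higher at Day 1 against a background of 11.6%.

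Across the 31 genes, the changes in EC and HC were compared with how much each gene is enriched in CM over FB at Day 0, because FB had the fewest CM transcripts. The correlation of the Day 3 log2 change with the log2 CM to FB ratio was −0.72 in EC and −0.75 in HC (Pearson, 31 genes, Spearman −0.74 and −0.71). In CM it was −0.27 (Spearman −0.11), where the change and the ratio share the CM Day 0 libraries. Genes are not independent replicates, and these values are a description. The part of CM RNA in the EC and HC changes was not tested. Of the 8 genes with the highest ratio (Fabp3, Cpt1b, Acss1, Acsl1, Acot13, Acadm, Hadhb and Ech1), 8 were lower in EC, 8 in HC and 3 in CM at Day 3. Of the 8 with the lowest ratio (Hsd17b10, Acot2, Echs1, Slc27a1, Ehhadh, Acot1, Eci2 and Cpt1a), 3 were lower in EC, 2 in HC and 3 in CM. The background at Day 3 was 22.3% lower in EC, 23.2% in HC and 14.6% in CM. The HC count of the lowest set stood near its background. The median Day 3 change of the first set was −1.14 in EC and −1.55 in HC, and of the second −0.28 and −0.34.

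**Figure D5:**
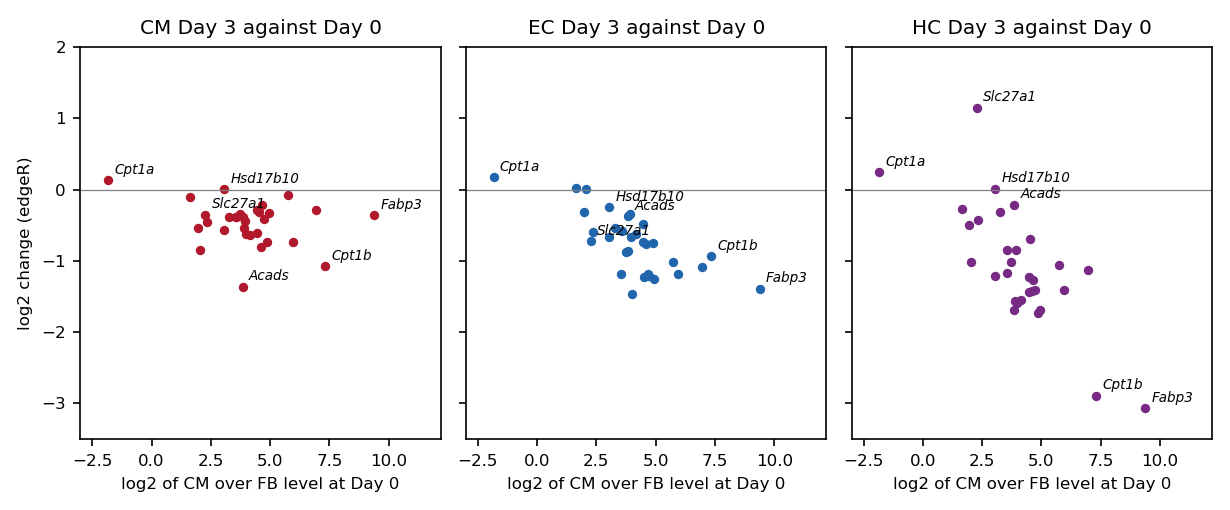
Log2 change at Day 3 against Day 0 (edgeR) of each gene in CM, EC and HC, plotted over the log2 ratio of its CM to FB level at Day 0. Each point is 1 of the 31 genes, and the grey line marks no change. In EC and HC the genes most enriched in CM, Fabp3 and Cpt1b, lie low. Cpt1a, the only gene higher in FB than in CM, lies above 0 there. The Pearson correlation was −0.27 in CM, −0.72 in EC and −0.75 in HC, and its cause was not tested.

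Whether the Day 3 change differed between cell types was tested by interaction, each cell type against the mean change of the other 3. In FB 22 genes changed more upward and 1 more downward (background 13.2% and 15.1%), with a median of 0.91, and in HC 17 more downward and 1 more upward (background 16.9% and 8.74%), with a median of −0.79. In CM only 1 gene was called, downward (background 7.46% downward and 11.3% upward), and in EC 4, all downward (background 5.17% and 6.78%). The member median for CM was 0.047 against 0.06 over all genes, so its changes stood near the mean of the other types. The contrasts share libraries, and the FB value enters each of them. Without the apart libraries the FB counts were 18 upward and 0 downward and the HC counts 20 downward and 1 upward. The FB direction turned by limma on TPM as deposited (13 downward, none upward), and scaling to coding reads gave 7 upward genes in CM.

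Fabp3 had the largest interactions, 3.87 in FB (SE 0.61, edgeR adjusted p = 2.3e-05) and −3.20 in HC (SE 0.57, edgeR adjusted p = 6.9e-05). Its own Day 3 changes were −0.36 (CM), −1.39 (EC), 2.49 (FB) and −3.07 (HC), and the FB value rests on replicates 2 and 3. Acot1 had 2.31 in FB (SE 0.45, edgeR adjusted p = 2.8e-04), resting on the same libraries. Cpt1a had −0.98 in FB (SE 0.24, edgeR adjusted p = 0.0033), from changes of 0.13, 0.17, −0.66 and 0.25 in CM, EC, FB and HC. Slc27a1 had 1.55 in HC (SE 0.33, edgeR adjusted p = 4.6e-04) and −0.98 in EC (SE 0.33, edgeR adjusted p = 0.049). Its own changes were −0.35 (CM), −0.72 (EC), 0.16 (FB) and 1.15 (HC).

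Cpt1b had −1.52 in HC (SE 0.39, edgeR adjusted p = 0.0036), but 0.60 (adjusted p = 0.61) once FB Day 3 replicate 1, the only FB Day 3 library with Cpt1b reads, was left out. Acads had −1.75 in CM (SE 0.49, edgeR adjusted p = 0.012) and −1.13 (adjusted p = 0.092) without CM Day 0 replicate 2. Acot13 in EC had −0.88 (SE 0.29, edgeR adjusted p = 0.048). The Acot13 and Slc27a1 calls in EC were lost in 20 and 24 of 32 fits that left out 1 library, with adjusted p up to 0.14 and 0.16. The EC count ranged from 0 to 7 over those fits. It was 0 without EC Day 0 replicate 1, EC Day 3 replicate 1 or EC Day 3 replicate 3, and 7 without FB Day 3 replicate 1.

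Neighbouring pathway genes were read from 4 lists, by counts at Day 3 against Day 0. The FB values of all 4 lists include Day 3 replicates 2 and 3, which stood apart, and are not given without them. In those replicates the 12 CM transcripts reached 3628 and 2691 coding CPM, and the part of CM RNA in these FB values was not tested. From Day 0 to Day 3 the mean sum of the 12 transcripts went from 23107 to 10454 in EC and from 28679 to 3317 in HC. The part of CM RNA in the EC and HC values of all 4 lists was not tested either. The background at Day 3 was 14.6% lower and 16% higher in CM, 22.3% and 23.2% in EC, 23.3% and 25.8% in FB, and 23.2% and 23.3% in HC. Of 18 tricarboxylic acid cycle genes, which burn the acetyl-CoA that β-oxidation yields, 13 were lower in CM, 13 in EC and 15 in HC, with none higher, while 8 were higher and none lower in FB. In CM the list included Ogdh (−0.69), Sucla2 (−0.66), Dld (−0.62) and Dlst (−0.61), and in FB Idh2 (1.46) and Mdh2 (1.27) rose. All 18 were lower in HC at Days 7, 14 and 28 (background 14%, 6.81% and 10.4%) and in EC at Day 28 (background 17.4%). At Day 0 all 18 were higher in CM than in the other types (background 32%).

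Of 14 regulators, 5 were lower in CM, among them Acacb (−1.28), which makes the malonyl-CoA that blocks the shuttle, the receptor gene Esrrg (−0.75), the AMP kinase subunit Prkaa2 (−0.62) and Rxra (−0.55). In EC 9 were lower and 2 higher, with Ppargc1b (−1.48), Prkaa2 (−1.13), Ppara (−1.09) and Ppargc1a (−0.79) lower. In HC 7 were lower and 2 higher, led by Prkaa2 (−3.08), Acacb (−2.93), Esrrg (−2.86) and Ppara (−2.84). In FB 2 were lower and 4 higher, with Esrrg (1.22) and Esrra (0.97) up and Rxra (−0.77) down, against an FB background of 23.3% and 25.8%. At Day 0, 8 of 14 were higher and 2 lower in CM (background 32% and 44.5%).

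Of 14 genes of uptake, storage and release, Slc27a6 did not pass the filter in CM and EC and Plin5 did not in FB. In CM 3 were lower (Dgat2, −0.67; Pnpla2, −0.52; Cd36, −0.46) and Fabp5, a binding protein of other tissues and of macrophages, rose by 1.97. In EC 8 were lower and none higher, with Plin5 (−1.62), Dgat2 (−1.23), Mgll (−1.02) and the lipase gene Lpl (−0.81). In HC 8 were lower, among them Plin5 (−2.83) and Mgll (−2.53), and 4 higher, among them Fabp5 (5.20) and the lipid droplet gene Plin2 (2.55). In FB 4 were lower, with Lpl (−0.98) and Pnpla2 (−0.89), and 3 higher, with Fabp5 (1.16) and Slc27a6 (1.05), near the FB background of 23.3% and 25.8%. At Day 0, CM had 7 higher and 4 lower (background 32% and 44.5%).

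Of 20 other oxidation, ketone and carnitine enzymes, 11 were lower and 2 higher in CM, where Ucp3 (−1.15) and Acad10 (−0.95) fell and the synthetase genes Acsl5 (1.39) and Acsl4 (0.79) rose. In EC 8 were lower and 3 higher, with Ucp3 (−1.41) and Bdh1 (−0.86) down and Acot7 (1.13) and Acsl4 (0.89) up. In HC 12 were lower and 4 higher, with Pdk4 (−3.16), Ucp3 (−2.78) and Bdh1 (−2.30) lower. In FB 19 passed the filter (Ucp3 did not), 4 were lower and 5 higher, with Acad9 (−1.15) down and Acot7 (2.41) and the ketone enzyme gene Bdh1 (1.75) up, near the FB background of 23.3% and 25.8%. At Day 0, 14 of 20 were higher and 4 lower in CM (background 32% and 44.5%).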

How the data were processed

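Total RNA-seq of 96 libraries (24 groups of 4) was analysed. Per the study's methods, trimming was by Trim Galore, alignment to mm10 by STAR 2.28 with Ensembl's GRCm38 annotation and quantification by Salmon; the strand setting is not given in the sources used here. The deposited files hold estimated counts and TPM, 56 per transcript and 40 per gene; transcript values were summed to genes of GENCODE vM21, and rows without a gene (0.0232 to 0.382% of reads) were left out. The study's methods call the replicates biological in 1 place and technical in another, so p-values measure the spread between pools. They also removed 2 FB Day 3 libraries and 1 HC Day 28 library as outliers, not identified there; all libraries were used here.

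Estimated counts, deposited by the authors, were rounded and tested with edgeR 4.0.16 (R 4.3.3; TMM, filterByExpr, robust quasi-likelihood, Benjamini-Hochberg over all genes tested), in 1 fit of 24 libraries per cell type, 1 of 16 at Day 0 and 1 of 32 for the interactions. From HC, Day 0 and interaction fits, 241 genes whose lengths differed between file kinds by over 1 base were dropped (no member). TPM as deposited was the planned level unit; since nuclear coding genes took only 2.21 to 46.7% of it, levels were rescaled to 21757 nuclear coding genes, a choice made after seeing the data. The steps were tested on simulated data. No pair of replicates was a duplicate (chi-square per degree of freedom 7.28 to 688 over 144 pairs). Intervals of counting error were not needed, as groups were replicated.

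The members and lists were chosen with earlier results of these data known. Most genes with fold changes were named by rule. Among called members whose groups did not overlap, these were the 5 lowest and 3 highest at Day 3, and 2 and 2 at other days. With no condition on overlap, they were the 4 and 4 extremes of all members at Day 0, and 2 and 2 called per interaction. A further 10 genes were fixed for their role. Some members, called or not, were given outside the rule, such as Acot1 and Acot2 at CM Day 1. Alternatives used DESeq2 1.42.0, limma 3.58.1 on log2(TPM + 1), other filters and scaling (that to coding reads was added after seeing the data), a replicate block, and fits without single libraries or the 8 apart. The values of 1 listed gene are not reported here.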

Additional observations from a re-analysis of the deposited data

Results flagged for a closer look

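Among 78 groups of 4 libraries examined for a library far from the others (Dixon's test), 3 had one, where chance gives about 1 in 20. The summed level of the 31 genes in EC at Day 3 was 2376 coding CPM in replicate 1, against 1960 to 1990 in the others. Fabp3 in FB at Day 0 was 6.75 in replicate 2, against 5.46 to 5.52. Cpt1b in FB at Day 3 was 1.19 in replicate 1 and 0 in the others, with reads of the other libraries assigned to the overlapping gene Gm44502.

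The Day 3 change differed from the mean change of the other 3 cell types in 1 member for CM, 4 for EC, 23 for FB and 18 for HC (edgeR interaction, adjusted p over all genes), and the 9 named by rule are given here. In CM this was Acads (−1.75, adjusted p = 0.012). In EC the named genes were Slc27a1 (−0.98, adjusted p = 0.049) and Acot13 (−0.88, adjusted p = 0.048). In FB the named genes were Cpt1a (−0.98, adjusted p = 0.0033), Acot1 (2.31, adjusted p = 2.8e-04) and Fabp3 (3.87, adjusted p = 2.3e-05). In HC the named genes were Fabp3 (−3.20, adjusted p = 6.9e-05), Cpt1b (−1.52, adjusted p = 0.0036) and Slc27a1 (1.55, adjusted p = 4.6e-04). These values are on the log2 scale.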

How the results depend on the processing

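Counts below are the members called, of 31, in either direction. The direction and the rough size of the EC decreases at Days 3 to 28, the HC decreases at Days 1 to 28 and the Day 0 difference held under every edgeR and DESeq2 alternative. With no filter on low counts the count was 6 at CM Day 7, 4 from CM Day 3 to Day 28, 0 at FB Day 14 and 1 for the EC interaction. DESeq2's Wald test gave 2 at CM Day 28, 10 at EC Day 1, 7, 3 and 6 at FB Days 7, 14 and 28, 8 for the EC interaction and 4 (3 upward) for the CM interaction. DESeq2's size factors gave 2 for the CM interaction. Scaling to coding reads gave 3 and 9 at CM Days 7 and 14, 2 from CM Day 3 to Day 28, 1 at FB Day 28, 14 from HC Day 3 to Day 28 and 8 for the CM interaction. Without the libraries that stand apart the counts were 1 at EC Day 1, 15, 9, 5 and 6 at FB Days 1, 7, 14 and 28, 3 from HC Day 3 to Day 28, 4 for the CM interaction and 0 for the EC interaction, and Fabp3 at FB Day 3 was −0.25. Nothing in the labels says that replicate numbers pair libraries, and in no cell type did every same-numbered pair correlate over 0.1, so the block stayed an alternative: over 60 same-numbered pairs the correlation of deviations averaged 0.16 in CM (43 over 0.1, 66.7% of libraries closest to their own number), −0.026 in EC, −0.0049 in FB and 0.044 in HC. The share closest to their own number was 4.17% in EC, 20.8% in FB and 45.8% in HC. It was 56.2% in the Day 0 fit and 37.5% in the interaction fit. A bar that every pair must pass is strict, and the CM values are a hint of shared deviations. The replicate block gave 5 at CM Day 1, 19, 15 and 19 at CM Days 3, 7 and 14, 1 at CM Day 28, 10 from CM Day 3 to Day 28, 0 at FB Day 14 and 2 for the EC interaction.

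limma on log2(TPM + 1) scaled by TMM gave 1, 9, 0 and 1 at CM Days 1, 3, 7 and 14, 3 from CM Day 3 to Day 28, 0 at FB Days 7 and 14, 3 from HC Day 3 to Day 28, and 5 and 1 for the CM and EC interactions. On TPM as deposited it gave 0, 2, 0 and 0 at CM Days 1, 3, 7 and 14 and 2 from CM Day 3 to Day 28. It gave 0, 7, 6, 9 and 10 at EC Days 1, 3, 7, 14 and 28 and 13 from EC Day 3 to Day 28. It gave 0, 26, 0, 0 and 1 at FB Days 1, 3, 7, 14 and 28 and 7 from FB Day 3 to Day 28. It gave 11, 0 and 6 at HC Days 7, 14 and 28, 2 from HC Day 3 to Day 28, and 10, 0, 13 and 5 for the CM, EC, FB and HC interactions. Signs reversed on that scale in CM at Day 3 for Ehhadh (0.0085), Cpt2 (0.053), Acsl1 (0.094) and Hadha (0.35). They did at EC Day 7 for Slc25a20 (0.20), Acadl (0.006), Hadha (0.026) and Etfdh (0.07), at EC Day 14 for Slc25a20 (0.22), Acadl (0.17), Hadha (0.033), Etfdh (0.33) and Acsl1 (0.22), and at EC Day 28 for Cpt1b (0.032), Slc25a20 (0.16) and Etfdh (0.19). They did at FB Day 3 for Hadh (−0.65), Etfb (−0.85), Acads (−0.23), Cpt2 (−0.65), Hadha (−0.97) and Fabp3 (−0.27), at Day 0 for Slc27a1 (−0.84) and Ehhadh (−0.17), and for Acot1 in the FB interaction (−0.53). The cause of these moves was not tested. The summed CM level at Day 0 was 5.84, 19.4 and 5.13 times that of EC, FB and HC in coding CPM, and 2.52, 3.4 and 1.16 times in TPM as deposited.

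Leaving out 1 library at a time gave 2 to 4 at CM Day 1, 11 to 15 at Day 3, 5 to 12 at Day 7, 8 to 17 at Day 14, 0 to 2 at Day 28 and 2 to 9 from Day 3 to Day 28. In EC these ranges were 0 to 12, 23 to 25, 22 to 24, 19 to 24, 26 to 27 and 10 to 17, in FB 6 to 9, 13 to 15, 1 to 3, 0 to 1, 0 to 2 and 18 to 22, and in HC 21 to 24, 23 to 26, 25 to 26, 20 to 24, 19 to 24 and 5 to 10. The Day 0 count was 31 throughout, and the interactions gave 1 to 3 (CM), 0 to 7 (EC), 22 to 25 (FB) and 15 to 19 (HC). The HC interaction of Cpt1b ranged from −1.70 to 0.60, the latter without FB Day 3 replicate 1. Counted as pairs of a gene result and a fit, 127 lost the call and 14 gained one, against 2170 that did neither, and 24 and 20 of the 127 were Slc27a1 and Acot13 in the EC interaction. Depth limits FB Day 3 most, where 3 reads stand for 2.34 and 1.75 coding CPM in replicates 2 and 3.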
